A study of Mus musculus with 7 samples.

Results

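The Fc gamma receptors and their partner chains were examined here as 6 genes, Fcgr1, Fcgr3, Fcgr4, Fcer1g, Fcgr2b and Fcgrt, picked by symbol from the 25571 rows of the deposited count table. All 6 had a row, and all 6 passed the filter on low counts that left 15822 genes to test. The cells were CD11b+ tumour-associated macrophages sorted by flow cytometry from dissociated brain tumours of mice with orthotopic T387 glioblastoma xenografts. In the Pracinostat group (4 libraries) the mice received Pracinostat, an inhibitor of zinc-dependent histone deacetylases, at 30 mg/kg by gavage, 4 times a week for 3 weeks, starting 7 days after implantation, although the labels also give 3 mg/kg for the prepared drug. In the DMSO group (3 libraries) the mice received the DMSO-containing solvent on the same schedule. All mice were NSG, a strain without mature T cells, B cells and NK cells that keeps its myeloid cells. Age is not given in the sources used here. The labels call the libraries biological replicates and do not say which animals, or how many, each came from, so p-values measure the spread between these libraries.

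Fc gamma receptors bind the constant part of IgG and so connect antibodies on a target to the cell that takes it up. In mice, Fcgr1 (CD64), Fcgr3 (CD16) and Fcgr4 are activating receptors that assemble with the common gamma chain, the product of Fcer1g, whose immunoreceptor tyrosine-based activation motif (ITAM) is phosphorylated by Src-family kinases and recruits the kinase Syk. Fcgr2b (CD32) binds the same immune complexes but carries an inhibitory motif (ITIM) in its own tail, which recruits the inositol phosphatase SHIP-1, the product of Inpp5d, and raises the threshold for phagocytosis. Fcgrt encodes the neonatal Fc receptor, an MHC class I-like chain that pairs with beta-2-microglobulin and returns IgG from endosomes to the cell surface. NSG mice lack the B cells that make IgG. The comparison asks whether the activating and inhibitory arms differed in macrophages after a treatment studied for its effect on phagocytosis.

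The motifs that divide the family are shown as coding sequence from the GENCODE M21 transcripts (build GRCm38), with the codons of the motif in capitals. These sequences, and the comparisons of sequence below, are of the reference genome. Whether the NSG mice carry the same sequence in these genes was not tested. In Fcer1g the ITAM spans codons 65 to 79 of 86. In Fcgr2b the ITIM spans codons 317 to 322 of 340. The ITIM was searched for as isoleucine, leucine, valine or serine, any residue, tyrosine, any 2 residues, and isoleucine, leucine or valine. That loose pattern also matched 3 times in Fcgr1 and 1 time each in Fcgr4, Fcer1g and Fcgrt, so a match alone is only a description.
Fcer1g-201: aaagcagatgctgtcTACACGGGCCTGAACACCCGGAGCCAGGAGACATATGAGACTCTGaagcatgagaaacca
Fcgr2b-201: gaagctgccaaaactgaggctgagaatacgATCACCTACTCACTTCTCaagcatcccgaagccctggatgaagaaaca

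The parts that bind IgG are much less distinct, which bears on how counts are divided between Fcgr2b and Fcgr3. Their coding sequences aligned over 509 bases with 96.5% identity, and the longest identical run was 129 bases. The stretch around that run is shown for both genes, with the 6 bases that differ in capitals.
Fcgr2b-201: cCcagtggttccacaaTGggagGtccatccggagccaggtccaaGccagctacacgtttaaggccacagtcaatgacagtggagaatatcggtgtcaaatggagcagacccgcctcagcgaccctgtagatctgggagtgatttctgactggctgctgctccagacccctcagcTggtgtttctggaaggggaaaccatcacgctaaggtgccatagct
Fcgr3-201: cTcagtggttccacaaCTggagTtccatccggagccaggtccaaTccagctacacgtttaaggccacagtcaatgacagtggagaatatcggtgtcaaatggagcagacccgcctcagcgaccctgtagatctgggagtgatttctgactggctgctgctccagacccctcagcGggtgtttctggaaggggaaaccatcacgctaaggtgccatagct

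Of all 100-base windows of the coding sequence, 4.78% in Fcgr2b and 6.27% in Fcgr3 occurred unchanged in a transcript of the other gene, and of 150-base windows, the length of each read of a pair, 0% did. No 50-base window was shared between Fcgr1 or Fcgr4 and any other of the 4 receptors. An untrimmed read of 150 bases thus cannot lie wholly in the identical run, while a read trimmed to 129 bases or fewer can. How many such reads there were was not tested. Different forms of the Fcgr2b tail, which differ in how they take up bound complexes, are not separated by a table of gene counts.

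The libraries held 10142753 to 16950597 counts. Itgam, which encodes the sorted antigen CD11b, stood at 1448 to 2580 CPM (counts scaled to library size, with TMM factors) with Pracinostat and 1318 to 1688 CPM with DMSO, and Ptprc, which encodes CD45, at 521 to 678 CPM with Pracinostat and 472 to 733 CPM with DMSO. The test was edgeR's quasi-likelihood test, two-sided, with Benjamini-Hochberg adjustment over all 15822 genes. Of these, 0 (0%) had an adjusted p under 0.05, the smallest being 0.482. The count at an unadjusted p under 0.05 was 661 (4.18%), made up of 444 (2.81%) with a higher level after Pracinostat and 217 (1.37%) with a lower one. By DESeq2 25 genes passed and by limma-voom 0, and no member of the family passed by either.

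Of the 6 receptor genes, 0 passed the test, and none had groups that did not overlap, against 6.1% of all genes (3.51% higher and 2.59% lower). Fold changes are given as log2 of Pracinostat over DMSO ± standard error. They were positive in 4 of the 6 genes, against 52.3% of all genes, and negative in 2, with a median of 0.01, beside a median of 0.02 over all genes tested. Every one of the 6 had an adjusted p above 0.99 in edgeR. In bulk RNA, fewer cells that express a gene and less RNA per cell cannot be told apart.

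**Figure D1:**
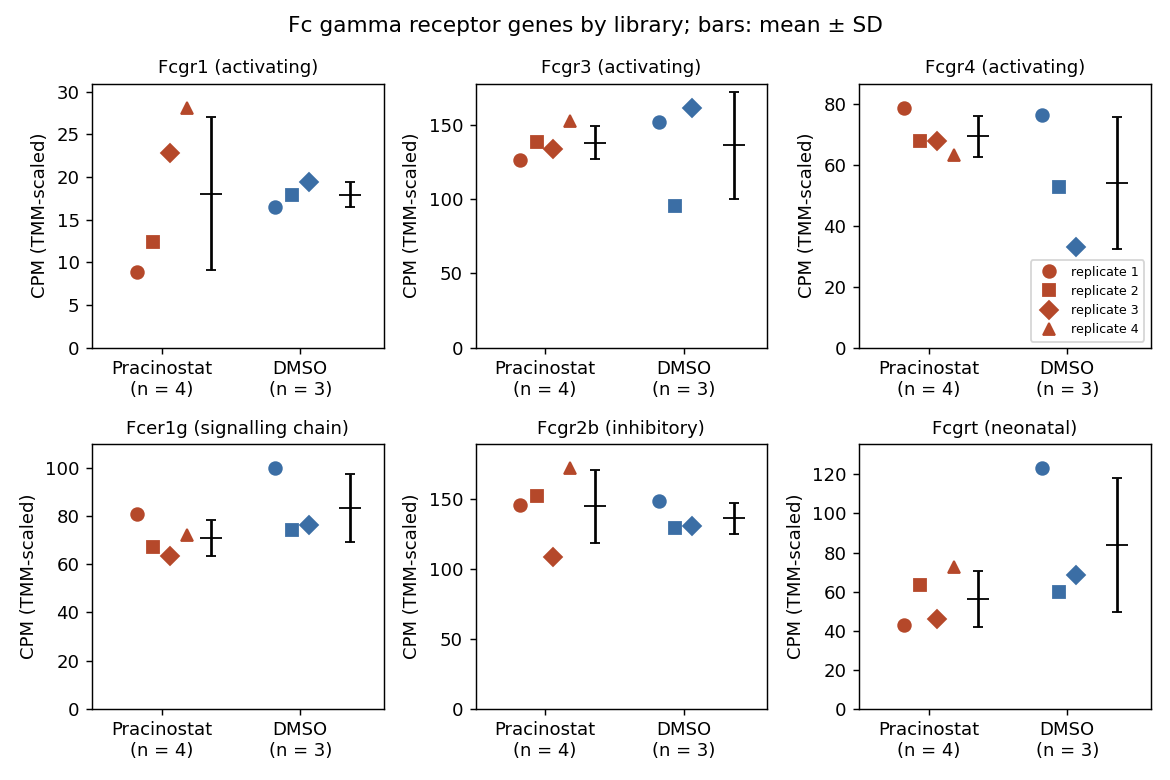
Level of each receptor gene in CPM (vertical axes, each starting at 0) in the 4 Pracinostat libraries (left) and the 3 DMSO libraries (right). Symbols mark the replicate number and black bars the mean ± SD. In all 6 panels the groups overlap, and Fcgr1 runs from 8.86 to 28.1 CPM with Pracinostat against 16.5 to 19.5 CPM with DMSO.

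Fcgr1 encodes the high-affinity receptor that can hold single IgG molecules. It stood at 8.86, 12.4, 22.8 and 28.1 CPM in Pracinostat replicates 1 to 4, against 16.5, 17.9 and 19.5 CPM in DMSO replicates 1 to 3. Pracinostat replicates 1 and 2 lay below every DMSO library and replicates 3 and 4 above every one, so the means were close, at 18.1 ± 8.96 CPM (SD, n = 4) with Pracinostat and 18.0 ± 1.47 CPM (SD, n = 3) with DMSO. The log2 fold change was 0.01 ± 0.38, with a 95% interval from 0.57-fold to 1.77-fold. The coefficient of variation was 49.6% with Pracinostat and 8.2% with DMSO, where counting error alone would give 5.38 to 8.77% at the 130 to 345 counts with Pracinostat and 5.75 to 6.9% at the 210 to 302 counts with DMSO. That value had no stable direction. It turned negative with RLE scaling (-0.0028) and without Pracinostat replicate 4 (-0.30), and was 0.24 without Pracinostat replicate 1.

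Fcgr3 encodes a low-affinity receptor for immune complexes. Its level was 126, 139, 134 and 152 CPM in Pracinostat replicates 1 to 4, against 152, 95.04 and 161 CPM in DMSO replicates 1 to 3. All 4 Pracinostat libraries lay within the range of the DMSO libraries. Means were 138 ± 11.1 CPM (SD, n = 4) with Pracinostat and 136 ± 35.9 CPM (SD, n = 3) with DMSO, a log2 fold change of 0.02 ± 0.19 with a 95% interval from 0.764-fold to 1.34-fold. Without DMSO replicate 2, the lowest library, it was -0.18.

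Fcgr4 encodes a receptor of intermediate affinity found on monocytes, macrophages and neutrophils. It was the activating receptor with the largest fold change of the 3. The Pracinostat libraries held 78.9, 67.9, 67.8 and 63.2 CPM and the DMSO libraries 76.6, 52.9 and 33.2 CPM. DMSO replicate 1 lay within the Pracinostat range, while the other two DMSO libraries lay below it. The means were 69.5 ± 6.64 CPM (SD, n = 4) with Pracinostat and 54.2 ± 21.7 CPM (SD, n = 3) with DMSO, and the log2 fold change of 0.36 ± 0.25 did not pass (edgeR unadjusted p = 0.169; 95% interval 0.888-fold to 1.85-fold). Its size rested on the DMSO libraries. It was 0.10 without DMSO replicate 3 and 0.69 without DMSO replicate 1 (unadjusted p = 0.0153, adjusted p = 0.944).

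Fcer1g encodes the signalling chain on which all 3 activating receptors depend, and which several other myeloid receptors share. It stood at 80.9, 67.2, 63.3 and 72.3 CPM with Pracinostat, against 99.9, 74.4 and 76.5 CPM with DMSO. Pracinostat replicates 2, 3 and 4 lay below every DMSO library and replicate 1 did not. The means were 70.9 ± 7.6 CPM (SD, n = 4) with Pracinostat and 83.6 ± 14.2 CPM (SD, n = 3) with DMSO, and the log2 fold change was -0.24 ± 0.18 (edgeR unadjusted p = 0.214; 95% interval 0.648-fold to 1.11-fold). DMSO replicate 1 decided much of that value, which was -0.09 without it. Tyrobp, which encodes DAP12, the other main ITAM adaptor of myeloid cells, averaged 193 ± 33 CPM (SD, n = 4) with Pracinostat and 205 ± 46.3 CPM (SD, n = 3) with DMSO, at -0.09 ± 0.19.

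Fcgr2b, the inhibitory receptor, had 146, 152, 109 and 172 CPM in Pracinostat replicates 1 to 4, against 149, 129 and 130.2 CPM in DMSO replicates 1 to 3. Pracinostat replicate 3 was the lowest and replicate 4 the highest of all libraries. Means were 145 ± 26.3 CPM (SD, n = 4) with Pracinostat and 136 ± 10.9 CPM (SD, n = 3) with DMSO. The log2 fold change was 0.09 ± 0.18, with a 95% interval from 0.819-fold to 1.38-fold, and it was -0.02 without Pracinostat replicate 4 and 0.20 without Pracinostat replicate 3.

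Fcgrt was the 1 member of the 6 with an unadjusted p under 0.05 (edgeR unadjusted p = 0.0478, edgeR adjusted p = 1.00), against 1.37% of all genes in the same, lower, direction. It stood at 42.7, 63.3, 46.1 and 72.6 CPM in Pracinostat replicates 1 to 4, and at 123, 59.8 and 68.3 CPM in DMSO replicates 1 to 3. The DMSO replicate 1 value was the highest of all, and the other two DMSO libraries lay inside the Pracinostat range. The means were 56.2 ± 14.2 CPM (SD, n = 4) with Pracinostat and 83.8 ± 34.3 CPM (SD, n = 3) with DMSO. The log2 fold change was -0.58 ± 0.27, with a 95% interval from 0.451-fold to 0.996-fold, and -0.19 without DMSO replicate 1 (unadjusted p = 0.478). B2m, whose product pairs with the neonatal receptor and with MHC class I chains, had 775 to 1099 CPM with Pracinostat and 609 to 899 CPM with DMSO, at 0.20 ± 0.18.

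**Figure D2:**
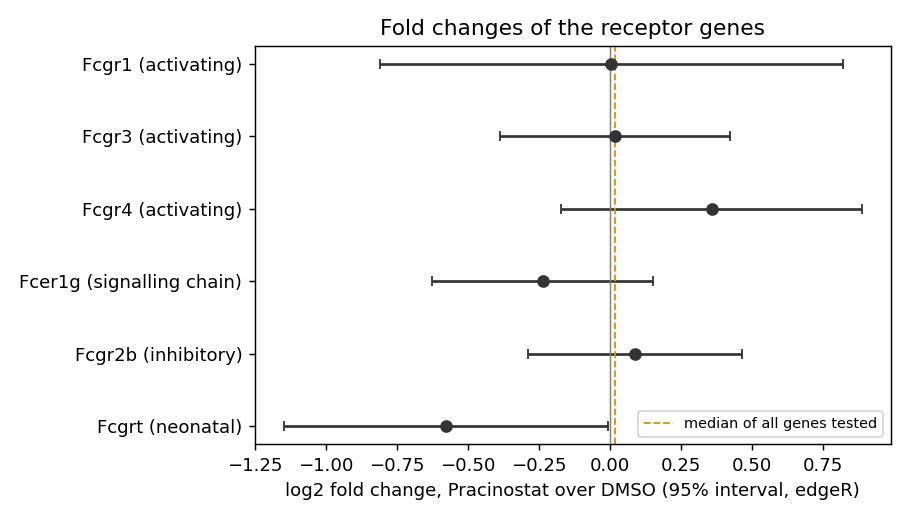
Log2 fold change of each receptor gene, Pracinostat over DMSO (horizontal axis), with its 95% interval from the edgeR fit. The dashed line is the median of all genes tested, 0.02. Of the 6 intervals, that of Fcgrt ends just short of 0, at 0.996-fold, and the others span it.

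Levels of different genes were compared per kilobase of coding sequence, with the longest coding transcript of each gene that is linked to RefSeq. Fcer1g was highest, at 275 ± 29.5 CPM per kb (SD, n = 4) with Pracinostat and 324 ± 55 CPM per kb (SD, n = 3) with DMSO. Fcgr3 followed at 172 ± 13.8 CPM per kb with Pracinostat and 169.9 ± 44.8 with DMSO, and Fcgr2b at 142 ± 25.8 CPM per kb with Pracinostat and 133 ± 10.7 with DMSO. These neighbours did not separate fully, since Fcgr3 exceeded Fcgr2b in 4 of 4 Pracinostat but 2 of 3 DMSO libraries. Fcgr4 (93.0 ± 8.89 CPM per kb with Pracinostat, 72.6 ± 29.0 with DMSO) and Fcgrt (51.3 ± 13 CPM per kb with Pracinostat, 76.5 ± 31.4 with DMSO) came next. Fcgr4 exceeded Fcgrt in 4 of 4 Pracinostat libraries and in 1 of 3 DMSO libraries, a difference in order that was not tested. Fcgr1 was lowest in 7 of 7 libraries, at 14.9 ± 7.39 CPM per kb with Pracinostat and 14.8 ± 1.21 CPM per kb with DMSO. The order depends on the length used. Per kilobase of the whole transcript, which in Fcgr2b is long, the mean of Fcgr2b (40.8 with Pracinostat, 38.4 with DMSO) was below that of Fcgr4 (55.3 with Pracinostat, 43.2 with DMSO). On that scale Fcer1g was close to Fcgr3 with Pracinostat (105 against 102) and less so with DMSO (124 against 101). Fcgrt then had rank 3 with DMSO (47.3) and rank 5 with Pracinostat (31.7).

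To set the activating arm against the inhibitory one, the count of each activating chain was divided by that of Fcgr2b in the same library. This removes library size and scaling but not transcript length. The ratios, single or summed, can thus be compared between libraries, while their size does not give the balance of the receptors. Differences of the mean log2 ratio were tested by a two-sided exact permutation test over the 35 possible assignments of the group labels, where p cannot go below 0.0286, with Benjamini-Hochberg adjustment over the 4 ratios. After that adjustment, none could fall under 0.05 unless most of the 4 ratios had groups that separated fully. None of the 4 differences passed, which says little about a change in a single ratio.

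The ratio of Fcgr3 to Fcgr2b was 0.867, 0.911, 1.23 and 0.888 in Pracinostat replicates 1 to 4, against 1.02, 0.736 and 1.24 in DMSO replicates 1 to 3. The groups covered nearly the same range. The mean log2 ratio was -0.05 ± 0.24 (SD, n = 4) with Pracinostat and -0.03 ± 0.38 (SD, n = 3) with DMSO, a difference of -0.02 (exact permutation p = 0.971, adjusted p = 0.971). Inverting the test, keeping shifts with an unadjusted p above 0.05, gave an interval for the difference from -0.52 to 0.81. The same level holds for the intervals of the other ratios.

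The ratio of Fcgr4 to Fcgr2b was 0.542, 0.446, 0.624 and 0.368 in Pracinostat replicates 1 to 4, against 0.515, 0.410 and 0.255 in DMSO replicates 1 to 3. The highest values were in Pracinostat libraries and the lowest in DMSO replicate 3. On the log2 scale the means were -1.04 ± 0.33 (SD, n = 4) with Pracinostat and -1.40 ± 0.52 (SD, n = 3) with DMSO, a difference of 0.36 (exact permutation p = 0.314, adjusted p = 0.629; interval -0.57 to 1.29). Without DMSO replicate 3 the difference was 0.08.

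For Fcgr1 the ratio to Fcgr2b ran from 0.0611 to 0.210 with Pracinostat and from 0.111 to 0.1496 with DMSO. Pracinostat replicates 3 and 4 lay above the DMSO range and replicates 1 and 2 below it. The difference of mean log2 ratios was -0.21 (exact permutation p = 0.714, adjusted p = 0.952; interval -2.32 to 1.83). For the signalling chain, the ratio of Fcer1g to Fcgr2b was 0.556, 0.441, 0.583 and 0.421 in Pracinostat replicates 1 to 4, against 0.673, 0.576 and 0.587 in DMSO replicates 1 to 3. Pracinostat replicate 3 lay inside the DMSO range and the other Pracinostat libraries below it. The difference was -0.30 (exact permutation p = 0.171, adjusted p = 0.629; interval -0.85 to 0.24).

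Summed over the 3 activating receptors, counts were 1.47, 1.44, 2.07 and 1.42 times those of Fcgr2b in Pracinostat replicates 1 to 4, and 1.65, 1.28 and 1.64 times in DMSO replicates 1 to 3. The mean log2 ratio was 0.66 ± 0.26 (SD, n = 4) with Pracinostat and 0.60 ± 0.21 (SD, n = 3) with DMSO. The difference of 0.06 was smaller than the spread within either group and had no stable direction. It was -0.06 without DMSO replicate 2, -0.07 without Pracinostat replicate 3, and 0.09 to 0.12 when any other library was left out.

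**Figure D3:**
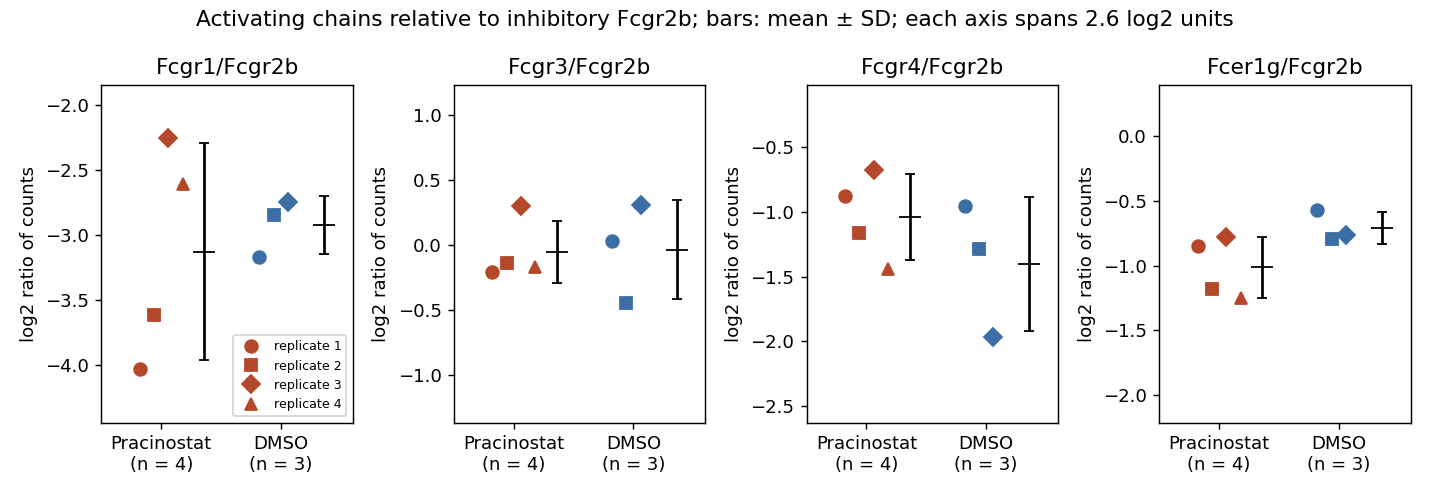
Log2 ratio of the counts of each activating chain to those of Fcgr2b (vertical axes, 2.6 log2 units each) in the 4 Pracinostat libraries (left) and the 3 DMSO libraries (right), with mean ± SD as black bars. The groups overlap in all 4 panels, and the largest difference of means is 0.36, for Fcgr4.

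Among the 6 genes, no pair showed a correlation across the 7 libraries that passed its test. Of the 15 pairs, the largest Pearson correlation of log2 CPM was that of Fcer1g with Fcgrt (r = 0.686, exact permutation p = 0.104, adjusted p = 0.823 over the 15 pairs; Spearman rho = 0.286, exact permutation p = 0.556). Without the 2 libraries farthest from the median of Fcer1g, DMSO replicate 1 and Pracinostat replicate 3, r was -0.625, so that relation rests on those libraries. The largest Spearman correlation was that of Fcgr3 with Fcgrt (rho = 0.75, exact permutation p = 0.0663, unadjusted). Its Pearson r was 0.424 (exact permutation p = 0.315, adjusted p = 0.823), and 0.87 without the 2 libraries farthest from the median of Fcgr3. Fcgr3 and Fcgr2b, which share sequence, had r = 0.313 (exact permutation p = 0.484, adjusted p = 0.823; rho = 0.464, p = 0.302) and 0.514 without the 2 libraries farthest from the median of Fcgr3.

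Among 5208 other genes compared over the same 7 libraries, the 2 most correlated with each member are listed. The best of so many genes over 7 libraries reach a high r whether or not they are related. The genes with the highest Pearson r, given as a description, were Iffo1 (r = 0.977, rho = 1) and Rin2 (r = 0.977, rho = 1) for Fcgr1, Pals2 (r = 0.963, rho = 0.821) and Gm29216 (r = 0.96, rho = 0.929) for Fcgr3, and Gpd1l (r = 0.988, rho = 0.964) and AU040320 (r = 0.973, rho = 0.893) for Fcgr4. For Fcer1g they were Rpl39 (r = 0.971, rho = 0.857), a ribosomal protein gene, and Myl12b (r = 0.97, rho = 0.893), a myosin light chain gene. For Fcgr2b they were Mark4 (r = 0.957, rho = 0.964) and Copz1 (r = 0.954, rho = 0.857), and for Fcgrt Itm2b (r = 0.909, rho = 0.893) and Osbpl11 (r = 0.896, rho = 0.821). Without the 2 libraries farthest from the member's median, r was 0.681 to 0.986 over the 12. These genes had been picked on all 7 libraries, so that range is no separate check.

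The genes around the receptors were taken from fixed lists and are described by counts, since none passed the test. Activating signalling from the Src kinases and Syk to actin and calcium had 36 genes tested, of which 21 were positive and 15 negative, with a median of 0.02 and 0 at an unadjusted p under 0.05. Syk, the kinase that docks on the gamma chain, had 353, 326, 214 and 328 CPM with Pracinostat against 301, 393 and 380.2 CPM with DMSO, at -0.23 ± 0.18. The members with the smallest p were Prkce, a protein kinase C (0.67 ± 0.34, edgeR unadjusted p = 0.0664, adjusted p = 1.00, groups not overlapping), and Plcg1, a phospholipase C (0.35 ± 0.19, edgeR unadjusted p = 0.0966, adjusted p = 1.00). Of the 36 genes, 3 were higher in every Pracinostat library than in any DMSO library, against 3.51% of all genes.

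Inhibitory phosphatases, adaptors and ubiquitin ligases had 17 genes tested, 6 of them positive, and their median was -0.06. Inpp5d, the effector of Fcgr2b, had 905 to 1119 CPM with Pracinostat and 875 to 982 CPM with DMSO, at 0.09 ± 0.14. In this list 2 of 17 genes had an unadjusted p under 0.05, against 4.18% of all genes. Pag1, a membrane adaptor that holds the Src-inhibiting kinase Csk, was at 0.64 ± 0.21 (edgeR unadjusted p = 0.0081, adjusted p = 1.00), with 272, 248, 472 and 364 CPM with Pracinostat, all above the DMSO values of 197, 239 and 218 CPM. Such a separation was seen in 1 of the 17 genes, against 3.51% of all genes. Dok3, an adaptor that restrains immunoreceptor signalling, was at -0.51 ± 0.22 (edgeR unadjusted p = 0.0353, adjusted p = 1.00), with overlapping groups.

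Receptors reported to use the gamma chain had 4 of 11 genes positive and a median of -0.36. At an unadjusted p under 0.05 there were 2 of 11, both positive, against 2.81% of all genes in that direction. They were Csf2rb2 (0.52 ± 0.16, edgeR unadjusted p = 0.0064, adjusted p = 1.00) and Csf2rb (0.39 ± 0.17, edgeR unadjusted p = 0.0373, adjusted p = 1.00). These genes encode near-identical beta chains of the IL-3 receptor. Their link to the gamma chain is known from basophils, and their reads may be split between them. Other immunoglobulin receptors had 4 genes tested, of which 1 was positive (median -0.35), and ITAM adaptors 3, of which 1 was positive (median -0.09), with 0 at an unadjusted p under 0.05 in each. The members with the smallest p were Fcrlb (-0.52 ± 0.72) and Fcrla (-1.48 ± 2.06), Fc receptor-like genes at no more than 7.04 CPM in any library, and, beside Tyrobp, Cd79b, a B cell receptor chain (-0.80 ± 0.50, groups not overlapping). Groups that did not overlap in the lower direction were 1 of the 3 ITAM adaptors, against 2.59% of all genes. That gene, Cd79b, was low, at 3.90 to 4.83 CPM with Pracinostat and 5.11 to 9.08 CPM with DMSO (edgeR unadjusted p = 0.130).

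Interferon gamma is the classical inducer of Fcgr1. Of 13 genes of its receptor, signalling and targets 8 were positive, with a median of 0.04. At an unadjusted p under 0.05 there were 2 of 13, both positive, against 2.81% of all genes in that direction. Irf1, a transcription factor of that response, was at 0.57 ± 0.16 (edgeR unadjusted p = 0.0032, adjusted p = 0.996), with 162 to 232 CPM with Pracinostat against 127 to 136 CPM with DMSO, and Gbp5, an interferon-inducible GTPase, at 0.62 ± 0.26 (edgeR unadjusted p = 0.0295, adjusted p = 1.00). Irf1 was the 1 gene of the 13 that was higher in every Pracinostat library than in any DMSO library, against 3.51% of all genes. Receptors and transducers of IL-4, IL-10 and TGF-beta, signals linked to Fcgr2b, had 7 of 11 genes positive and a median of 0.07. Of the 11, 2 had an unadjusted p under 0.05, 1 in each direction, against 4.18% of all genes. Groups did not overlap in 1 gene higher and 1 lower, against 3.51% and 2.59% of all genes. Tgfbr1, a TGF-beta receptor, was at 0.38 ± 0.15 (edgeR unadjusted p = 0.0218, adjusted p = 1.00), and Il10rb, a chain of the IL-10 receptor, at -0.46 ± 0.17 (edgeR unadjusted p = 0.0157, adjusted p = 1.00), with 118 to 182 CPM with Pracinostat against 202 to 215 CPM with DMSO. Partners and trafficking genes of the neonatal receptor had 5 of 10 positive, a median of -0.04 and 0 at an unadjusted p under 0.05, those with the smallest p being B2m (edgeR unadjusted p = 0.268, adjusted p = 1.00) and Rab11fip5 (-0.17 ± 0.18). None of the p-values in these lists passed edgeR's adjustment over all genes.

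**Figure D4:**
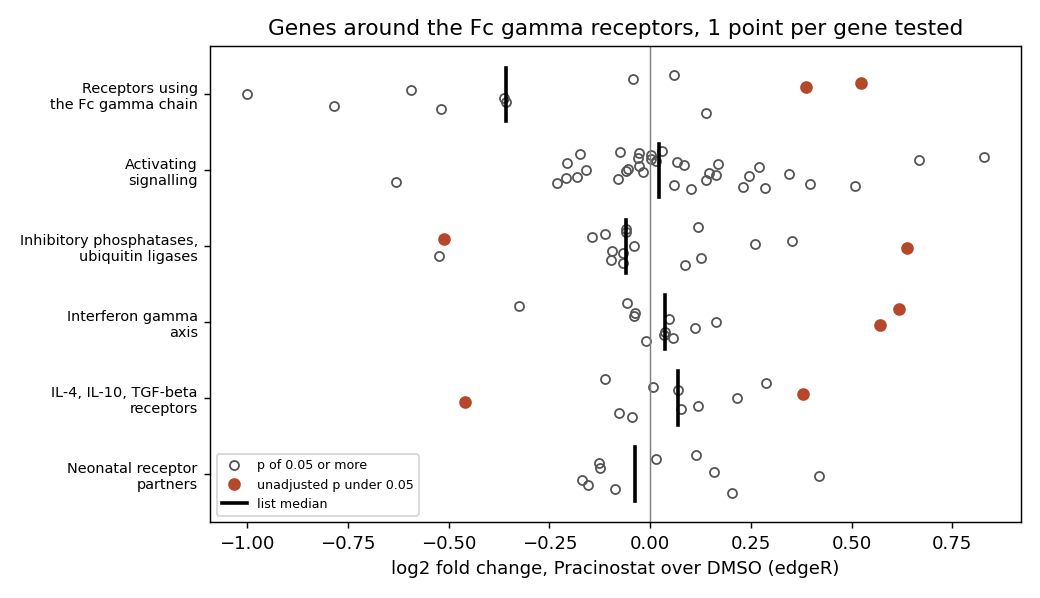
Log2 fold change, Pracinostat over DMSO (horizontal axis), of the genes tested in 6 lists around the Fc gamma receptors, 1 point per gene. Filled points have an unadjusted p under 0.05 and vertical bars are list medians, which run from -0.36 for receptors that use the gamma chain to 0.07 for IL-4, IL-10 and TGF-beta receptors.

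Several cell types other than macrophages carry these receptors, so their markers are given beside them. B cells express Fcgr2b, and of 8 B cell markers the 7 in the table summed to 0.000494 to 0.000809% of counts with Pracinostat and 0.000795 to 0.00126% with DMSO, led by Cd79b. NK cells express Fcgr3, and the 2 of 8 NK cell markers in the table, Klrk1 the higher, summed to 0.000149 to 0.00119% with Pracinostat and 0.000227 to 0.00174% with DMSO. Neutrophil markers, led by Csf3r, which macrophages also express, summed to 0.0369 to 0.0554% with Pracinostat and 0.0268 to 0.0516% with DMSO. Mast cell and basophil markers, of which 2 of 10 were in the table (Kit and Hdc), summed to 0.00142 to 0.0068% with Pracinostat and 0.00126 to 0.00533% with DMSO. Dendritic cell markers, led by Flt3, summed to 0.00339 to 0.0182% with Pracinostat and 0.00524 to 0.0157% with DMSO. Endothelial markers, led by Flt1, summed to 0.00965 to 0.043% with Pracinostat and 0.0306 to 0.0391% with DMSO, and oligodendrocyte markers, led by Mbp, to 0.022 to 0.101% with Pracinostat and 0.0186 to 0.0379% with DMSO. No marker in the table was at 0 in every library. Whether the table leaves out genes at 0 everywhere was not tested, so this does not show traces of each cell type. The IgG heavy chain genes in the table, Ighg2b, Ighg2c and Ighg3, had 0 to 5 counts in a Pracinostat library and 0 to 19 in a DMSO library, while Ighm stood at 38.1 to 62.9 CPM with Pracinostat and 41.6 to 61.0 CPM with DMSO.

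Markers of the kinds of macrophage also differed between libraries. The sum of 7 microglia markers, led by Cx3cr1, was 0.225, 0.285, 0.457 and 0.275% of counts in Pracinostat replicates 1 to 4, against 0.292, 0.249 and 0.282% in DMSO replicates 1 to 3. Monocyte-derived macrophage markers, led by F13a1, summed to 0.113, 0.0897, 0.0383 and 0.1003% of counts in Pracinostat replicates 1 to 4, against 0.195, 0.172 and 0.0888% in DMSO replicates 1 to 3. Border-associated macrophage markers, which also include F13a1, summed to 0.104, 0.107, 0.0327 and 0.114% with Pracinostat, against 0.1801, 0.1795 and 0.111% with DMSO. General macrophage markers, led by Lyz2, summed to 0.905 to 1.23% with Pracinostat and 0.965 to 1.12% with DMSO. Pracinostat replicate 3 thus had the highest microglia share and the lowest monocyte-derived and border-associated shares. It also had the lowest Fcgr2b and Fcer1g of the 7 libraries, while its Fcgr3 (134 CPM) and Fcgr4 (67.8 CPM) were neither lowest nor highest. Pracinostat replicate 1 had the lowest microglia share and the lowest Fcgr1 (8.86 CPM) and Fcgrt (42.7 CPM). DMSO replicate 1, with the highest Fcgrt and Fcer1g, had the highest monocyte-derived and border-associated shares. DMSO replicate 2 had nearly the same border-associated share and the next highest monocyte-derived share. Its Fcgrt (59.8 CPM) and Fcer1g (74.4 CPM) were the lowest of the DMSO libraries. Fold changes were positive in 6 of 7 microglia markers (median 0.20) and in 7 of the 7 neutrophil markers tested (median 0.59), in 1 of 8 monocyte-derived markers (median -0.41) and in 0 of 8 border-associated ones (median -0.75), against 52.3% of all genes. A collagen gene, Col1a1, reached 440 CPM in Pracinostat replicate 1 and 702 CPM in DMSO replicate 2, while every other library had 11.7 to 32.2 CPM. Pracinostat replicate 1 also had the most Mbp, a myelin gene (548 CPM, others 83.8 to 175 CPM). The part of these differences in the receptor values was not tested.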

How the data were processed

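RNA of sorted cells was sequenced from 7 libraries as pairs of 150 bases, from a stranded total RNA kit for low input, per the labels' protocols. The table deposited by the authors lists whole numbers by gene symbol, read here to be RSEM expected counts without normalization. Per the submitters' processing notes, STAR, RSEM and DESeq2 were used beside Trim Galore and quality tools, with GRCm39 as the build. No source used here gives the strand setting or annotation. The reference at hand was of build GRCm38, so no coordinates are given, and coding sequences and lengths come from GENCODE M21.

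Counts were tested with edgeR 4.0.16 in R 4.3.3 (robust quasi-likelihood fit after TMM scaling, genes kept by filterByExpr at a minimum of 10) over 15822 genes. Standard errors come from the F statistic and 95% intervals from its degrees of freedom. Ratios used counts plus 0.5. The test was tried on simulated counts for this comparison (15822 genes, 200 of them changed, 3 runs). Recovery was 26.4% for 2-fold, 76.6% for 4-fold and 91.4% for 8-fold changes, and 0.0448% of the genes left alone were called.

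The members and the 22 gene lists were chosen with earlier results of these data known, and 1 marker gene is not reported here. Genes were named by rule, namely the members, up to 2 genes of a list with the smallest p, the 2 genes most correlated with each member (mean log2 CPM of at least 5), 8 fixed genes and the top gene of each marker list. Alternatives covered scaling, filter, DESeq2 1.42.0, limma-voom (limma 3.58.1), robust estimation, left-out libraries, pseudocount, group medians and the replicate number as a block. Every pair of libraries within a group differed by far more than sampling noise, with a chi-square statistic of 32.3 or more for each degree of freedom.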

Additional observations from a re-analysis of the deposited data

Results flagged for a closer look

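Dixon's test at the 95% level was applied to 23 values over the 4 Pracinostat libraries, and 4 had a single library that stood apart. About 1 in 20 would do so by chance. Some of the values share genes, such as the ratios to Fcgr2b, so the flags are not independent. No excess is read from their number. It was not applied to the 3 DMSO libraries. Pracinostat replicate 3 had the highest log2 ratio of Fcgr3 to Fcgr2b (0.301, others -0.21 to -0.13, DMSO -0.44 to 0.31). It also had the highest log2 ratio of the 3 summed activating receptors to Fcgr2b (1.05, others 0.51 to 0.56, DMSO 0.36 to 0.72), and the lowest share of border-associated macrophage markers (0.0327% of counts, others 0.104 to 0.114%, DMSO 0.111 to 0.1801%). For fibroblast markers the library apart was Pracinostat replicate 1 (0.0914% of counts, others 0.016 to 0.0273%, DMSO 0.0143 to 0.136%).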

How the results depend on the processing

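No receptor gene passed the threshold in any of 102 alternative values, and 13 of those had the other sign. For Fcgr1 it was -0.0028 with RLE scaling, -0.0028 with DESeq2, -0.20 with limma-voom and -0.41 with the replicate block, and -0.30 to 0.24 over the fits that left out 1 library. For Fcgr3 it was -0.14 without the 2 libraries richest in Col1a1, -0.015 with the replicate block and -0.18 to 0.16 with 1 library left out, and for Fcgr2b -0.033 with the replicate block and -0.019 to 0.20 with 1 library left out. Fcgr4 (0.10 to 0.69), Fcer1g (-0.31 to -0.09) and Fcgrt (-0.77 to -0.19) kept their sign when any 1 library was left out. The count of called genes was 63 with every gene of at least 1 count kept, 25 with DESeq2, 4 with the replicate block and 0 to 3 with 1 library left out, the 3 without DMSO replicate 3, and otherwise 0.

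For the ratios, neither other pseudocount made a difference pass. Group medians carry no test, and the paired form, the forms with 1 library left out and that without the 2 libraries richest in Col1a1 could not reach 0.05. The Fcgr1 to Fcgr2b difference was 0.13 without the 2 libraries richest in Col1a1 and -0.50 to 0.095 with 1 library left out. The Fcgr3 to Fcgr2b difference was 0.020 with the replicate block and -0.22 to 0.15 with 1 library left out. The labels do not say that replicate numbers pair the samples. Deviations of same-numbered libraries correlated at 0.009 to 0.144, against -0.105 to 0.0668 for unlike numbers, so pairing was not taken as shown. The width of the intervals limits what can be said, since changes of up to 1.77-fold in Fcgr1 and 1.85-fold in Fcgr4 lie within them.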
